A study of Mus musculus with 7 samples.

Results

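Small nucleolar RNAs (snoRNAs) and the non-coding genes that carry them were followed in hematopoietic stem cells (HSCs) of mouse bone marrow, in 3 control libraries labelled Fth1fl/fl and 4 libraries labelled Fth1△/△ (Fth1-deleted), each from mice 2 months old. Fth1 encodes the heavy chain of ferritin, the iron storage shell. According to the series text it was deleted conditionally in the hematopoietic system, and the driver of the deletion, the sort markers and any treatment shared by the groups are not given in the sources used here. The labels give polyA RNA, and leave unsaid whether the libraries are separate animals, so p-values measure the spread between libraries. Members were chosen by FPKM: they are the rows whose identifier maps in GENCODE mouse M21 to a symbol starting with Snora, Snord or Snhg and a digit, or to Gas5, and whose FPKM was above 0 in at least 1 of the 7 libraries. FPKM is the number of reads counted to a gene, scaled to the gene's length and to the library's total. Of 55855 rows in the table, 157 carried such a symbol and 42 had a value above 0, of which 30 were small RNA rows and 12 host rows. That choice used presence in any library, not the contrast between groups. The rows nearest the limit were Snord65, with 1 read in all libraries together, and the 111 small RNA rows and 4 host rows that were at 0 everywhere. Another 1367 rows annotated as snoRNA carry other symbols and are not members, and 60 of them had a value above 0.

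SnoRNAs are short nuclear RNAs that guide chemical modification of other RNAs, above all ribosomal RNA. Box C/D snoRNAs (Snord) guide methylation of the ribose by fibrillarin, and box H/ACA snoRNAs (Snora) guide the change of uridine to pseudouridine by dyskerin. In mammals most are cut from introns of a host gene after splicing. Many hosts encode ribosomal proteins or translation factors, and others, such as Gas5 and the Snhg genes, are spliced transcripts with little coding capacity, several of which are degraded by nonsense-mediated decay. A mature snoRNA has no polyA tail.

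The sequences below belong to the rows on which the results turn, copied 5′ to 3′ as DNA letters from the GENCODE M21 transcripts (GRCm38). Capitals mark TGATGA near the 5′ end and CTGA near the 3′ end of the box C/D rows, and ACA near the 3′ end of the box H/ACA row Snora31.
Snord49a: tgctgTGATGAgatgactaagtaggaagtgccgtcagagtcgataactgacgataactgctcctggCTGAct
Snord49b: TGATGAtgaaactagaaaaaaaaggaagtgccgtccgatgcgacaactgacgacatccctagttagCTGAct
Snord73a: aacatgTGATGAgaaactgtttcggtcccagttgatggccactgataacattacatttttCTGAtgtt
Snord104: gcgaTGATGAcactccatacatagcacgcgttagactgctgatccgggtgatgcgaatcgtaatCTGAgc
Snora31: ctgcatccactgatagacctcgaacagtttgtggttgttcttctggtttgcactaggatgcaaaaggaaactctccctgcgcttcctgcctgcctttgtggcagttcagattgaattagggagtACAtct

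Snord49a (chromosome 11, 62603450 to 62603521, plus strand) and Snord49b (62603079 to 62603150 of the same strand) lie in introns of the non-coding gene 2410006H16Rik. They share the run aggaagtgccgtc of 13 bases, at the same distance from their first base. Snord73a (chromosome 3, 86138791 to 86138858, minus strand) lies in an intron of Rps3a1, and Snora31 (chromosome 14, 75847905 to 75848034, plus strand) in an intron of Tpt1. Snord104 (chromosome 11, 106500993 to 106501062, plus strand) lies in no other gene of GENCODE M21 that the table holds. In the transcript strand, TGATG within the first 20 bases together with CTGA within the last 20 was found in 18 of the 21 box C/D members (85.7%) and in 67 of the 78 box C/D rows at 0 (85.9%). ACA within the last 9 bases was found in 9 of the 9 box H/ACA members and in 31 of the 33 such rows at 0. By these letters the members looked like the rows without reads.

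The libraries held 12058392 to 15453168 counted reads, and a single read on a gene of 70 bases is worth 0.924 to 1.18 FPKM, so low FPKM of small RNA rows stand for very few reads. Fth1 was at 616 ± 56.5 FPKM (SD, n = 3) in control and 252 ± 114 (SD, n = 4) in Fth1-deleted libraries, with no overlap between groups, but its log2 difference of -1.42 (SE 0.33) did not pass (limma adjusted p = 0.193). Nuclear ribosomal RNA took 0.0253%, 0.984% and 0.0140% of reads in control 1 to 3 and 1.21% to 1.34% in the Fth1-deleted libraries. Control 2 thus stood with the Fth1-deleted libraries, and controls 1 and 3 stood apart. All 7 of the 7 stem cell markers were above 1 FPKM in every library, with a summed FPKM of 576 to 967 in control and 431 to 599 after Fth1 deletion. Of these 7, only Hlf did not overlap between the groups, and it was lower, at 157 to 263 FPKM in control and 66.9 to 129 after Fth1 deletion. The 5 neutrophil and monocyte markers summed to 2.33 to 23.5 FPKM in control and 25.9 to 276 after Fth1 deletion, without overlap. Elane and Ctsg were at 0 in every control library and in Fth1-deleted 1 and 2. S100a8 was at 0 to 17.5 FPKM in control and 3.98 to 31.4 after Fth1 deletion. Of the 5 neutrophil and monocyte markers only Mpo did not overlap between the groups, at 0.255 to 3.63 and 15.4 to 135 FPKM. The 4 B cell markers summed to 12.1 to 26.2 and 24.2 to 63.0 FPKM, and the 2 T cell markers to 0 and 0 to 2.49. Of the B cell markers only Vpreb1 did not overlap, at 0 in every control library and 4.06 to 31.8 FPKM after Fth1 deletion. The 2 megakaryocyte markers summed to 465 to 727 and 732 to 884 FPKM, also without overlap. Each of the 2 alone overlapped between the groups, Pf4 at 134 to 213 and 172 to 336 FPKM and Itga2b at 332 to 514 and 501 to 664. The 4 erythroid markers summed to 33.4 to 239 and 34.5 to 301, and the 2 mast cell markers to 286 to 384 and 355 to 441.

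Among the small RNA rows, Snord49a and Snord73a rose in Fth1-deleted HSCs, and no row fell. Of the 30 rows, 24 passed the filter of a mean FPKM of at least 1, and 2 of these passed the test (limma, Benjamini-Hochberg over 13948 genes), both upward, where 0.0574% of all tested genes passed in either direction and 0.0287% upward. Snord104 also had groups that did not overlap, so that 3 of 24 rows were higher in every Fth1-deleted library than in every control library and 0 were lower. Over all tested genes these shares were 4.1% higher and 5.55% lower. A row can pass the filter through the group where it is high, so these counts describe the rows and do not support a change of the class. The median log2 difference of the 24 rows was 0.97, with 19 positive, beside -0.017 over all tested genes. However, 16 of the 24 rows were at 0 in at least 4 libraries. The sign of such a row rests on which group holds its few libraries with reads, so no change of the class is read from these values.

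Snord49a had 0 reads in each of the 3 control libraries and 16, 58, 78 and 31 reads in the Fth1-deleted libraries. These are 14.4, 59.2, 84.6 and 29.1 FPKM, or 46.8 ± 31.3 (SD, n = 4), at least 15.2-fold above a floor of 3 reads per control library. All Fth1-deleted libraries were above all control libraries, although they differed among themselves. The log2 difference on the log2(FPKM + 1) scale was 5.30 (SE 0.60, limma adjusted p = 0.0113). Its sister Snord49b had 0 reads in control and 1, 1, 1 and 0 after Fth1 deletion. Snord65, in the same host, had a single read, in control 2. Of the 3 small RNAs of 2410006H16Rik, reads were thus counted almost only to Snord49a (183, 3 and 1 reads over all libraries).

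Snord73a had 2, 0 and 0 reads in the control libraries and 22, 38, 40 and 45 after Fth1 deletion. In FPKM it was at 2.12, 0 and 0 in control and at 20.9, 41.0, 45.9 and 44.7 after Fth1 deletion, and the groups did not overlap. Pooled over each group's reads the ratio was 52.4 (95% exact binomial interval 14.2 to 437, counting error only). On the log2 scale the difference was 4.68 (SE 0.54), with a limma adjusted p of 0.0113.

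The calls of Snord49a and Snord73a depended on the processing and on single libraries. Both were lost with no filter on low values (limma adjusted p = 0.172 for each), with limma-voom on reads (0.309 for Snord49a and 0.375 for Snord73a) and with reads not scaled to gene length (0.327 and 0.375), and Snord73a with pseudocount 0.1 (0.0539). Both were also lost without control 3 (limma adjusted p = 0.0548 for each) and without Fth1-deleted 3 (0.0691 for each), and with the ribosomal RNA share as a covariate, where the log2 differences were 5.10 (SE 1.16, adjusted p = 0.126) and 5.34 (SE 1.00, adjusted p = 0.0761). The replicate number as a block ended both calls too (limma adjusted p = 0.684 for each). Control 2, the control library with high ribosomal RNA, had 0 reads of either row. Set against control 2 alone, the Fth1-deleted libraries differed by 5.30 for Snord49a and by 5.23 for Snord73a on the log2 scale, values from which no call is read, since the control is a single library. The summed neutrophil and monocyte markers did not overlap between the groups either, and their part in these results was not tested. In bulk samples, fewer cells of a type and less RNA per cell cannot be told apart.

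The hosts of these small RNAs did not pass the test. 2410006H16Rik was at 192, 131 and 273 FPKM in control and at 182, 175, 139 and 181 after Fth1 deletion, with a log2 difference of -0.17 (SE 0.24, limma adjusted p = 0.828), which was 0.087 without control 3. Rps3a1, a protein of the small ribosomal subunit, was at 2308 ± 391 FPKM (SD, n = 3) and 2004 ± 293 (SD, n = 4), with a log2 difference of -0.20 (SE 0.18, adjusted p = 0.728). The difference between small RNA and host was taken in each library, as log2(FPKM + 1) of the small RNA minus that of its host. It was higher in Fth1-deleted libraries by 5.47 for Snord49a and by 4.88 for Snord73a, with no overlap between the groups. Both pairs were chosen because the small RNA had passed, so this is a description and no p is given. Gene-level values do not show whether reads on a small RNA row come from the mature RNA or from unspliced host RNA.

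Snord104 had reads in the 5 libraries with high ribosomal RNA and in neither of the others. It had 0, 67 and 0 reads in control 1 to 3 and 104, 89, 59 and 77 after Fth1 deletion. In FPKM it was at 63.6 in control 2 and at 65.8 to 96.1 after Fth1 deletion, so the only control library with reads lay next to the lowest Fth1-deleted library. Its log2 difference of 4.36 (SE 1.12) did not pass (limma adjusted p = 0.239). With the ribosomal RNA covariate the difference was -1.43 (SE 0.68, adjusted p = 0.445), and without control 2 it was 6.36 (SE 0.35, adjusted p = 1.23e-05). Among the 5 libraries with high ribosomal RNA the difference was 0.35, with control 2 as the lone control.

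**Figure D1:**
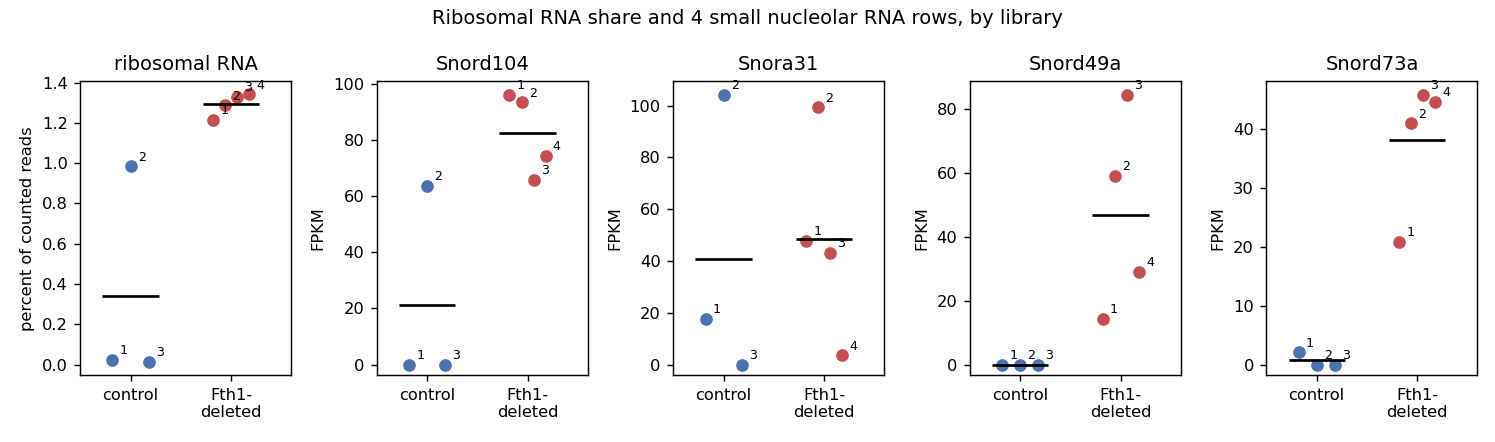
Nuclear ribosomal RNA as percent of counted reads and FPKM of Snord104, Snora31, Snord49a and Snord73a, with 1 point per library, its replicate number beside it, and a line at the group mean. Control 2 lies at 0.984% ribosomal RNA and 63.6 FPKM of Snord104, near the Fth1-deleted libraries, but at 0 for Snord49a and Snord73a.

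In the other abundant small RNA rows the groups overlapped. Snora31, whose host Tpt1 encodes a translationally controlled protein, had the most reads of all small RNA members, at 32, 204 and 0 in control and 96, 176, 72 and 7 after Fth1 deletion. Its groups overlapped (log2 difference 1.34, SE 1.32, limma adjusted p = 0.759, and -0.49 without control 3). Snord17, in an intron of the sorting nexin gene Snx5, had 77, 0 and 0 reads in control and 47, 33, 21 and 6 after Fth1 deletion. Snord58b, in an intron of the ribosomal protein gene Rpl17, had 67, 0 and 1 reads and 5, 48, 47 and 3 reads. These rows share no order of libraries: control 1 was highest for Snord17 and Snord58b and had no read of Snord104.

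Snord55 had 0, 0 and 1 reads in control and 2, 27, 0 and 50 after Fth1 deletion (log2 difference 2.54, SE 1.17, limma adjusted p = 0.507). Snora57 had 1, 4 and 0 reads in control and 1, 38, 0 and 0 after Fth1 deletion. Snora17 had 76 reads in control 2, 65 and 62 in Fth1-deleted 3 and 4, and 0 in the other 4 libraries. The hosts of Snora31, Snord17 and Snord58b, which are Tpt1, Snx5 and Rpl17, had log2 differences of -0.17 (SE 0.18), 0.15 (SE 0.20) and 0.16 (SE 0.18), none past the threshold. While each of these 3 small RNAs had no read in at least 1 library, Snx5 and Rpl17 stayed between 161 and 272 FPKM and Tpt1 between 2078 and 3213.

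Most of the remaining rows appeared in only a few libraries. No small RNA row had reads in all 7 libraries, 13 of 30 had reads in a single library, 6 in 2 libraries, and 8 in at least 4. The 13 rows of a single library were Snord110 (74 reads, Fth1-deleted 3), Snord53 (65, control 1), Snord71 (61, control 2), Snora19 (60, Fth1-deleted 2), Snord89 (58, control 2), Snord42b (44, Fth1-deleted 4), Snord83b (24, Fth1-deleted 2), Snora23 (23, Fth1-deleted 4), Snord70 (12, Fth1-deleted 2), Snord72 (8, Fth1-deleted 4), Snora62 (3, Fth1-deleted 2), Snord35a (2, control 2) and Snord65 (1, control 2). So 9 of the 13 had over 10 reads in their library and 0 in the other 6. All 24 tested rows were at 0 in at least 1 library and 16 of them in at least 4, where 23.9% and 9.31% of all tested genes were. By group, 11 rows had reads in Fth1-deleted libraries alone, 5 in control libraries alone and 14 in both. Nothing is read from that split: it sets 4 libraries against 3, of which control 3 holds 3 small RNA reads in all, and presence is the value that chose the rows.

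The rest lay between these extremes. Snora20, in an intron of the chaperonin gene Tcp1, had 60 reads in control 1 and 17 in Fth1-deleted 3. Snord91a, in the ribosome biogenesis gene Tsr1, had 5 reads in control 2 and 61 in Fth1-deleted 2. Snora69, in Rpl39, had 27 in control 2 and 34 in Fth1-deleted 4. Each of these 3 rows was thus found once in either group.

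Snord43, in Rpl3, had 21 reads in Fth1-deleted 2 and 14 in Fth1-deleted 4. Its row is annotated as a microRNA in GENCODE M21 and is counted here as box C/D by its symbol. Snora41, in the elongation factor gene Eef1b2, had 1 read in each of controls 2 and 3 and 37 in Fth1-deleted 3. Snord87, the only member whose host has a Snhg symbol in GENCODE M21 (Snhg6), had 1 read in control 2 and 13 in Fth1-deleted 1. Snord32a, in Rpl13a, had 2 reads in control 2 and 1 in Fth1-deleted 3. Snord32a did not pass the filter, and the other 3 did not pass the test.

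**Figure D2:**
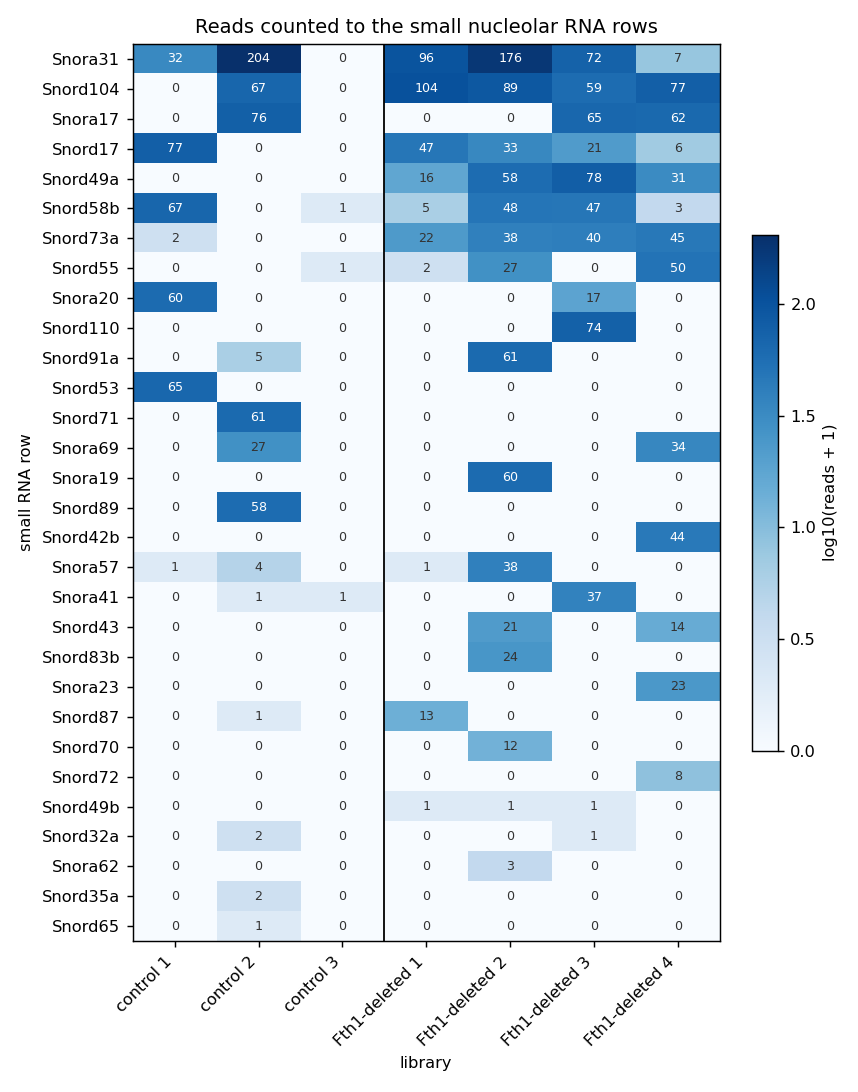
Reads counted to each of the 30 small RNA rows (vertical) in each of the 7 libraries (horizontal), with the read number in each cell and colour on a log10(reads + 1) scale. Control 3 holds 3 reads in all, and the rows at the bottom hold reads in few libraries.

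Summed over the 30 rows, the libraries held 304, 509 and 3 reads in control and 307, 689, 512 and 404 after Fth1 deletion. Control 3 stood apart, with 1 read in each of 3 rows, while in summed FPKM controls 1 and 2, at 211 and 313, lay within the range of the Fth1-deleted libraries (209.6 to 528). In summed FPKM the groups were at 176 ± 158 (SD, n = 3) and 378 ± 143 (SD, n = 4), a ratio of 2.15, which was 3.54 without control 2 and 1.44 without control 3. No p is given for a sum over members. Control 3 was not poor in host RNA: its 12 host rows held 6702 reads, against 8220 and 8447 in the other controls and 6341 to 9845 after Fth1 deletion.

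Whether a small RNA row had any reads went with its place relative to annotated exons. Of the 141 small RNA rows with a matching symbol, 72 share no base with an exon of another gene on their strand in GENCODE M21, and 28 of these (38.9%) had reads. Of the 57 rows that lie wholly inside such an exon, 0 had reads, and of the 12 that lie partly inside, 2 had reads (Snord42b and Snora19). Exons of either strand gave 28 of 69, 0 of 61 and 2 of 11. Such overlaps can arise where a transcript of the host is annotated with the intron retained. HTSeq, which the authors used, by default leaves out a read that overlaps exons of more than 1 gene, and the mode used and the annotation release are not given in the sources used here. The part of the counting rule in these zeros was not tested, and a row at 0 does not show that its small RNA was absent from these cells.

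**Figure D3:**
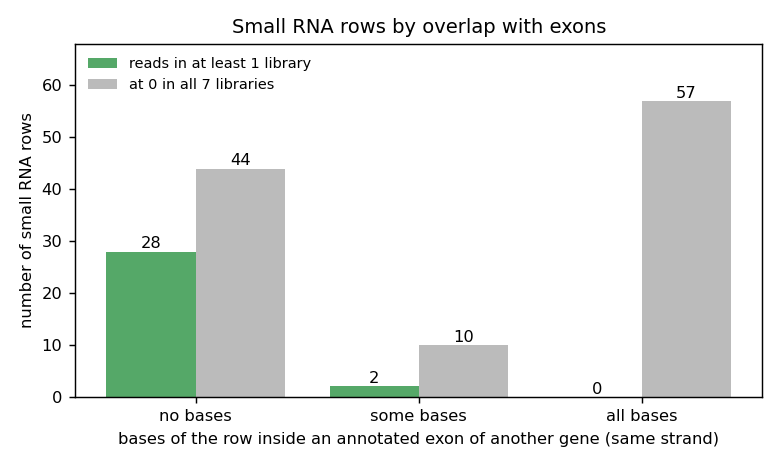
Number of small RNA rows (vertical) with reads in at least 1 library and at 0 in all 7 libraries, by how many of their bases lie inside an annotated exon of another gene on the same strand (horizontal). The 57 rows wholly inside an exon were all at 0, and 28 of the 72 rows without overlap had reads.

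The best known host is an example of rows at 0 inside exons. Gas5, named for its accumulation in growth-arrested cells, holds 4 of the small RNA rows (Snord47, Snord78 and a pair of rows named Snord80). All 4 overlap annotated Gas5 exons and were at 0, while Gas5 itself held 2145 to 3969 reads per library. The same held for the rows of Snhg12 (5 rows), Snhg5 (2), Snhg1 (1), Snhg8 (1) and Snhg15 (1): each overlaps an exon and was at 0. The 17 Snord116 rows, brain-enriched copies within Snhg14 at the imprinted Prader-Willi locus, overlap no exon and were at 0 too, with Snhg14 at 0 in 4 of 7 libraries. Without them, 28 of 55 rows free of overlap had reads. Rows free of overlap could be at 0 in abundant hosts too, such as Snord37 in Eef2 (mean 4002 FPKM) and Snord15a in Rps3 (mean 1363 FPKM).

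Most host rows had reads in every library, and none passed the test. Of the 12 host members, 11 were tested, 0 rose and 0 fell, where 0.0574% of all tested genes passed the limma test. In 0 hosts did the groups fail to overlap, where they were higher without overlap in 4.1% and lower in 5.55% of all tested genes. Of the 11 hosts, 0 had an unadjusted p under 0.05 (limma), where 9.83% of all tested genes had one, and the smallest adjusted p was 0.640. The median log2 difference was 0.00086, with 6 positive and 5 negative, beside -0.017 over all tested genes. The twelfth, Snhg18, had a mean FPKM under 1 and was not tested.

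Gas5 was the most abundant host by FPKM, at 324, 263 and 360 in control and 347, 230, 226 and 218 after Fth1 deletion. The Fth1-deleted libraries 2 to 4 lay under every control library, and Fth1-deleted 1 lay among them. Its log2 difference of -0.32 (SE 0.20) did not pass (limma adjusted p = 0.640), and it was 0.12 with the ribosomal RNA covariate. Snhg8 was at 39.7, 85.2 and 59.2 FPKM in control and 62.1, 34.6, 42.7 and 40.7 after Fth1 deletion (log2 difference -0.41, SE 0.30, adjusted p = 0.684).

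Snhg12 had the highest positive difference, at 17.9, 28.1 and 13.2 FPKM in control and 26.9, 24.8, 46.6 and 20.7 after Fth1 deletion (0.57, SE 0.36, limma adjusted p = 0.644, and -0.26 with the ribosomal RNA covariate). Snhg5 was at 58.4 ± 24.2 FPKM (SD, n = 3) in control and 72.7 ± 14.7 (SD, n = 4) in Fth1-deleted libraries, and Snhg1 at 53.7 ± 20.5 and 62.1 ± 11.1. Snhg17 was at 36.3 ± 12.2 and 41.6 ± 9.29 FPKM. With the covariate the log2 differences of Snhg5 and Snhg17 were -0.50 and -0.47. For each of these hosts the groups overlapped and the difference between means was under 1 SD of the control libraries, except for Snhg12.

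Snhg20, Snhg6 and Snhg15 were at 71.6 ± 34.9, 63.8 ± 17.6 and 49.6 ± 22.8 FPKM (SD, n = 3) in control and at 72.9 ± 15.7, 56.5 ± 19.1 and 46.8 ± 6.75 (SD, n = 4) in Fth1-deleted libraries. By mean FPKM, Gas5 stood above all other hosts in every library. The 8 hosts from Snhg20 to Snhg12 overlapped with their neighbours in that order. Snhg10 and Snhg14 were found in few libraries: Snhg10 had 98 reads in control 1, 18 and 45 in Fth1-deleted 1 and 4 and 0 elsewhere, and Snhg14 had 177 and 110 reads in controls 2 and 3, 61 in Fth1-deleted 2 and 0 elsewhere.

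**Figure D4:**
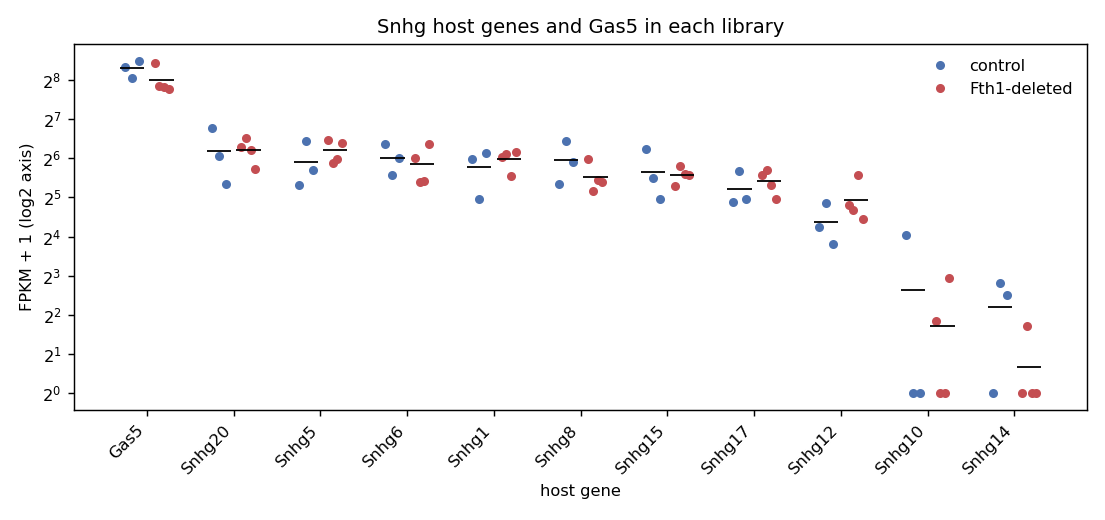
FPKM + 1 on a log2 axis (vertical) of the 11 tested host genes (horizontal), with 1 point per library in blue for control and red for Fth1-deleted, and a line at each group mean. The groups overlap for every host, and Gas5 lies above the others in every library.

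The remaining hosts of small RNA members are mostly genes of translation. Of the 30 small RNA members, 27 lie within an annotated host on their strand, 22 of them in a protein-coding gene. The hosts without a Snhg symbol in GENCODE M21 numbered 22, of which 21 were tested. Of these, 0 rose and 0 fell (limma), where 0.0574% of all tested genes passed. An unadjusted p under 0.05 (limma) was found for 1 of the 21, a smaller share than the 9.83% of all tested genes. The median log2 difference was -0.00054. The smallest adjusted p, 0.289, was that of Nop58, which carries Snord70 and is itself a core protein of box C/D particles.

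The proteins that form snoRNA particles were higher on average without passing the test. For the box C/D particle these are the methyltransferase fibrillarin (Fbl), the scaffold proteins Nop56 and Nop58 and the RNA-binding protein Snu13. For the box H/ACA particle they are the pseudouridine synthase dyskerin (Dkc1) with Nhp2, Nop10 and Gar1. Of these 8 genes, 0 rose and 0 fell (limma, adjusted over all genes), where 0.0574% of all tested genes passed. An unadjusted p under 0.05 (limma) was found for 3 of the 8, a larger share than the 9.83% of all tested genes. All 8 log2 differences were positive, from 0.28 to 0.62 with a median of 0.43. Over all tested genes 48.7% were positive. The summed neutrophil and monocyte markers (2.33 to 23.5 FPKM in control, 25.9 to 276 in Fth1-deleted libraries) and megakaryocyte markers (465 to 727 and 732 to 884) were higher in the same libraries, without overlap. Of the single markers in these sums, only Mpo did not overlap between the groups. The part of these cell types in the values of the core proteins was not tested.

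Nop58 was at 131, 115 and 112 FPKM in control and at 206, 162, 189 and 178 after Fth1 deletion. The groups did not overlap, and the log2 difference of 0.62 (SE 0.17) did not pass (limma adjusted p = 0.289). Snu13 was at 74.3, 102 and 111 FPKM and at 154, 125, 136 and 162, again without overlap (0.60, SE 0.20, adjusted p = 0.381). These were the 2 of the 8 core proteins that were higher without overlap, where 4.1% of all tested genes were. Fbl was at 304 ± 50.3 FPKM (SD, n = 3) and 391 ± 58.3 (SD, n = 4), and its groups overlapped, as did those of Nop56 (247 ± 74.3 and 295 ± 53.3).

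Of the box H/ACA proteins, Gar1 was at 147 ± 26.7 FPKM (SD, n = 3) in control and 199 ± 24.6 (SD, n = 4) in Fth1-deleted libraries (0.44, SE 0.19, limma adjusted p = 0.478). Dkc1 was at 135 ± 24.7 and 167 ± 30.1, Nhp2 at 106 ± 36.3 and 150 ± 60.5 and Nop10 at 82.8 ± 15.6 and 112 ± 24.6 FPKM. The groups of these 4 genes overlapped.

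**Figure D5:**
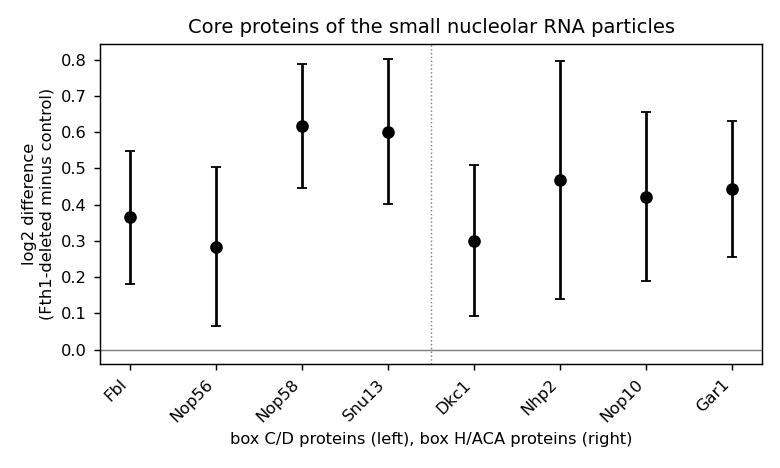
Log2 difference of log2(FPKM + 1), Fth1-deleted less control (vertical), of the 8 core proteins of snoRNA particles (horizontal), with bars of 1 SE from the limma fit. All 8 points lie above 0, between 0.28 and 0.62, and none passed the threshold after adjustment.

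Over all tested genes 0.0574% passed (limma), so 0 passing is what that share gives for lists as short as the next 3. Of all tested genes 48.7% were positive, with a median log2 difference of -0.017. Among 11 assembly factors 0 passed (limma), 10 were positive and the median log2 difference was 0.23. Nolc1, a chaperone of snoRNA particles, was at 86.6 ± 20.99 FPKM (SD, n = 3) and 126 ± 19.6 (SD, n = 4), and Rrp9, a protein of the U3 particle, at 64.0 ± 23.3 and 90.4 ± 17.3. Among 6 genes of RNA trimming and decay 0 passed, 2 were positive and the median was -0.16. The exosome nuclease genes Dis3 and Exosc10 had log2 differences of 0.56 (SE 0.31) and -0.35 (SE 0.23). Among 10 genes of nonsense-mediated decay 0 passed, 6 were positive and the median was 0.13. The endonuclease gene Smg6 had a log2 difference of -0.44 (SE 0.28) and Upf3b 0.39 (SE 0.33).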

How the data were processed

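Per the series text in the labels, the authors aligned paired-end reads to GRCm38 with HISAT2 2.0.4, counted reads per gene with HTSeq 0.9.1 and computed the deposited FPKM from gene length and read count. Any further scaling, the annotation release, the strand setting and filters are not given in the sources used here. Of 55855 rows, 55480 matched GENCODE M21, which gave symbols, positions, exons and hosts. A host is the gene on the same strand that contains the small RNA, the most abundant where several do. Each FPKM multiplied by the gene's mean transcript length was a whole multiple of 1 step in each library, which gave read numbers. Of values under 50 reads, 98.8% to 99.4% were whole within 0.05 reads. Intervals and floors cover counting error only.

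The test covered the 13948 genes whose mean FPKM was 1 or more, on log2(FPKM + 1) with limma 3.58.1 in R 4.3.3 (trend, two-sided, no covariate). Benjamini-Hochberg adjustment was used with a threshold of 0.05. The test was also run on simulated data. The genes changed there had more reads than Snord49a and Snord73a, so that run does not bear on their calls. The members and lists were chosen with earlier results of these data known. Genes are named by rule: Fth1; members past the threshold; hosts with a mean FPKM of at least 1; the small RNA rows with the highest median reads (up to 12; only 8 had a median above 0); rows whose groups do not overlap; their hosts; the 8 core proteins and the 2 genes of smallest p of each other list. Small RNA rows outside the rule are named to account for every member, and 1 host gene is not reported here. Ribosomal RNA is the sum of rows annotated as nuclear rRNA. The labels do not say whether shared replicate numbers pair the libraries, and the main test treated them as unpaired.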

Additional observations from a re-analysis of the deposited data

Results flagged for a closer look

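Within the 4 Fth1-deleted libraries, 42 results were screened for a library far from the others by Dixon's test, and 5 were picked. The test picks about 1 group in 20 by chance if values follow a normal distribution, which rows with zeros do not. Gas5 was at 347 FPKM in Fth1-deleted 1 and at 218 to 230 in the other 3. The summed FPKM of the host rows, of which Gas5 is the largest, was 815 in the same library and 624 to 655 in the others. The host 2410006H16Rik was at 139 FPKM in Fth1-deleted 3 and at 175 to 182 in the others. Snora57 was at 18.9 FPKM in Fth1-deleted 2 and at most 0.437 in the others, and Snhg14 at 2.31 FPKM in the same library and at 0 in the others. A row above 0 in only 1 of the 4 libraries, as Snhg14, is always picked.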

How the results depend on the processing

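The count of small RNA rows that rose was 2 and became 1 with pseudocount 0.1, 0 with no filter on low values, the replicate block, the ribosomal RNA covariate, limma-voom on recovered reads or reads scaled to library totals without length, and 0 to 3 with 1 library left out (0 without control 3 or Fth1-deleted 3, 3 without control 2). Among the 5 libraries with high ribosomal RNA, chosen after seeing the data and leaving control 2 as the lone control, it was 1 (Snord73a), which supports no call. The count that fell was 0, and 1 (Snord71) with the covariate and 2 (Snord71 and Snord89) in those 5 libraries. Both have reads in control 2 alone, so a single library against zeros fixed those counts. The count of hosts was 0 in either direction under all alternatives. The snoRNA-to-host differences ranged from 5.003 to 5.96 for Snord49a and from 4.48 to 5.52 for Snord73a with 1 library left out. The ratio of summed levels was 1.44 to 3.54 with 1 library left out. The replicate number as a block ended both calls, with log2 differences of 5.42 for Snord49a and 4.59 for Snord73a (limma adjusted p = 0.684 for each). Same-numbered libraries had correlations of deviations of 0.0058, 0.088 and -0.081, and libraries of different numbers had -0.13 to 0.13. Whether the numbers mark pairs is not given in the labels, and so few pairs cannot decide it.

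Snord104 passed without control 2. Other genes changed sign, and the cause was not tested. With the covariate the log2 differences were -0.50 for Snhg5, 1.79 for Snhg10, 0.41 for Snhg6, 0.12 for Gas5, -0.47 for Snhg17, -0.26 for Snhg12, -2.92 for Snora31, -1.43 for Snord104, -0.55 for Snora57, 0.63 for 2410006H16Rik, 0.091 for Tpt1, 0.24 for Exosc10 and -0.23 for Upf3b. In the 5 libraries with high ribosomal RNA they were -0.25 for Snhg5, 1.19 for Snhg10, 0.22 for Snhg6, -0.30 for Snhg17, -1.73 for Snora31, -0.27 for Snora57, 0.36 for 2410006H16Rik, 0.038 for Exosc10 and -0.011 for Upf3b. Snhg10 was at 0.28 with pseudocount 0.1, 0.37 with limma-voom and 0.10 with reads scaled to library totals. Snhg15 was at -0.0051 with pseudocount 5, -0.00091 with the replicate block and -0.030 with limma-voom. With 1 library left out the lowest and highest values were -0.83 and 1.19 for Snhg10, -0.088 and 0.49 for Snhg1, -0.40 and 0.00061 for Snhg6, -0.24 and 0.47 for Snhg20, -0.30 and 0.34 for Snhg15, -0.49 and 2.87 for Snora31, and -0.44 and 0.087 for 2410006H16Rik. At 1 read per 0.924 to 1.18 FPKM for a gene of 70 bases, differences of a few reads were not detectable.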
